A study of Mus musculus with 38 samples.

Results

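Transcript levels of 9 genes that encode laminin chains and the hemidesmosome integrin were followed through 38 libraries in 10 groups and 4 experiments on 4T1, a mouse cell line from a mammary adenocarcinoma that serves as a triple negative breast cancer model. The genes were chosen by name after their levels and fold changes in these same data had been seen: the laminin-332 chains Lama3 and Lamb3, the other chains Lama4, Lama5, Lamb1, Lamb2 and Lamc1, and the integrin chains Itga6 and Itgb4. They are 9 of the 55487 genes listed for the culture and brain experiments and of the 57126 listed for the tumour and miRNA experiments. Because the choice was made with their pattern across sample types in view, their levels between experiments are given as a description, without a test.

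The study asked what exosomes, the small vesicles that cells release, from fat cells made insulin resistant (IR) do to 4T1 cells, compared with exosomes from insulin sensitive (IS) fat cells or none. In the culture experiment, 4T1 cells received exosomes of IR adipocytes (3 libraries), exosomes of IS adipocytes (3 libraries) or no treatment (3 control libraries), with 72 h between exosome treatment and harvest. The adipocytes were differentiated from the 3T3-L1 line. The brain experiment held 5 IR, 5 IS and 5 untreated control libraries of a brain clonogenic assay, and the primary tumour experiment held 5 IR and 4 untreated control tumours. For both, the labels name the group and the 4T1 line but neither the host strain, its age nor the number of animals. In the miRNA experiment, 3 libraries of 4T1 cells were titled as treated with miR-145a-3p and 2 as treated with a scrambled miRNA. The library names of that experiment read the other way round, so every direction given for it rests on the titles. Single libraries are named by group and replicate number, as in IR 1. The labels speak of biological replicates but name no cultures or animals behind them, so a p-value here weighs a difference against the spread among libraries, part of which may be technical.

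Laminins are trimers of an alpha, a beta and a gamma chain that form the sheet-like scaffold of basement membranes. Laminin-332, whose alpha3 and beta3 chains are encoded by Lama3 and Lamb3, is made by epithelia and binds the integrin alpha6 beta4 (Itga6 and Itgb4), which links it through plectin to keratin filaments in the hemidesmosome. The alpha4 and alpha5 chains, joined with beta1 or beta2 and gamma1, make the laminins of blood vessel basement membranes, including those of brain vessels. The alpha5 chain is also widely made by epithelia, so Lama5, Lamb1 and Lamc1 are not specific to vessels.

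The start sites of 3 chains with contrasting patterns in these data are shown first: Lamb3, which was near its floor in the brain libraries, Lama5, which was abundant in all 4 experiments, and Lamb1, which rose in cultured cells given exosomes. Each line gives the 250 bases before an annotated start in RefSeq (GRCm38.p6), read 5′ to 3′ on the gene's strand. Capitals mark GC boxes, searched as GGGCGG or CCGCCC, which are each other's reverse complement and so cover both strands. Lamb3 is the first of its 2 entries (chr1:193301744-193301993, plus strand), Lama5 is chr2:180225860-180226109 (minus strand) and Lamb1 is chr12:31265043-31265292 (plus strand).
Lamb3: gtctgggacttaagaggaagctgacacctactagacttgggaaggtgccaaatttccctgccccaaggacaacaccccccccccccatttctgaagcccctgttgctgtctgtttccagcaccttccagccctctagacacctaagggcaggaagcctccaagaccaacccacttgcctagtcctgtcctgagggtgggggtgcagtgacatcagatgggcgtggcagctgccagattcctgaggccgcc
Lama5: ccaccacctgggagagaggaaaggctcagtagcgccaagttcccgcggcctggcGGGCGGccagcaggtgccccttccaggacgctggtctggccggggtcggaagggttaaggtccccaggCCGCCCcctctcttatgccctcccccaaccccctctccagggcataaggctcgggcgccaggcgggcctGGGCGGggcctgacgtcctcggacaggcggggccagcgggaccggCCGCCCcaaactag
Lamb1: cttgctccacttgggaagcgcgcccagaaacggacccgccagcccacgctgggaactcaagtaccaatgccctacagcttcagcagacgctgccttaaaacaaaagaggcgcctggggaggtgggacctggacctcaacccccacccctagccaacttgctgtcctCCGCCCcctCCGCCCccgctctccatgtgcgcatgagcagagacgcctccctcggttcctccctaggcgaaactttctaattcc
The Lamb3 window held 0 GC boxes and 2 CpG dinucleotides at 58.8% GC. The Lama5 window held 4 GC boxes and 19 CpG dinucleotides at 72.4% GC, and the Lamb1 window held 2 GC boxes and 14 CpG dinucleotides at 62.0% GC. Of all 32851 entries in the table, 32.7% held such a box, the median number of CpG dinucleotides was 6, and 29.0% of entries had as few as the Lamb3 window or fewer. Of the 9 genes, 4 had an entry, which made 5 windows in all. The windows of Lamb2 and of the other Lamb3 start held 0 boxes each. A match is a description of the letters and not of a site in use, and a window without one says only that these letters are not in it.

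Library totals ran between 8455412 and 13272583 counts in the culture and brain experiments and between 17392887 and 32637552 in the tumour and miRNA experiments, and levels are given as CPM, counts scaled to the effective library size. The labels call all libraries 4T1 mammary adenocarcinoma cells, and the culture, tumour and miRNA libraries carried the epithelial markers: the summed level of 8 of them (Epcam, Cdh1, keratins and claudins) was 2725 to 6647 CPM there. In the brain libraries the same sum was 121 to 255 CPM, and Epcam, an epithelial adhesion molecule, averaged 0.914 CPM in IR, 0.978 CPM in IS and 2.00 CPM in control libraries. The sum of 4 astrocyte markers was 56.0 to 184 CPM in brain libraries and 35.3 to 71.9 CPM in tumours. The ranges overlapped through brain IR 3 alone (56.0 CPM), and every other brain library, from 77.2 CPM, exceeded every tumour. Of the 4 markers, 4 passed the filter on low counts in the brain experiment and 2 in tumours. Because of the epithelial markers the brain libraries are called brain libraries here and not 4T1 cells. In these bulk samples, fewer cells of a type and less RNA per cell cannot be told apart. Of 12924, 10888, 12962 and 10751 genes with at least 3 CPM in at least 3 libraries of the brain, culture, tumour and miRNA experiments, the fit included 8, 8, 9 and 8 of the 9 genes. Lamb3 was below that filter in the brain experiment, and Lama4 in the culture and miRNA experiments.

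By group means the laminin-332 chains were high in cultured cells, lower in tumours and lowest in brain libraries. Which cells made them in tumours and brain libraries was not tested. Lamb3 (ENSMUSG00000026639), the beta chain of laminin-332, averaged 162 ± 4.25 CPM in untreated cultured cells (SD, n = 3), 31.9 ± 5.86 CPM in control tumours (SD, n = 4) and 1.41 ± 1.38 CPM in brain control libraries (SD, n = 5). The cultured control mean was 5.08 times that of control tumours and 115 times that of brain controls. Lama3 (ENSMUSG00000024421), the alpha chain of laminin-332, averaged 38.2 ± 1.72, 8.45 ± 1.45 and 4.24 ± 1.14 CPM in the same 3 groups. Across all 10 groups the 4 highest Lamb3 means were in the order scramble, miR-145a-3p, culture IS and culture control, and no neighbouring groups in the culture, tumour and miRNA experiments overlapped. The 3 brain groups came last and overlapped one another. For Lama3, overlap was the rule within each experiment except in tumours, where IR and control tumours stood apart.

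Lama4 (ENSMUSG00000019846), the alpha chain of vessel laminins, ran the other way. It averaged 36.3 ± 8.39 CPM in control tumours (SD, n = 4) and 23.2 ± 2.07 CPM in brain controls (SD, n = 5), and it had 1 count in the 3 untreated culture libraries together and 1 count in the 2 scramble libraries together. All 5 brain and tumour groups lay above all 5 groups of cultured cells. Lamb2 (ENSMUSG00000052911), a beta chain of vessel, muscle and synapse laminins, averaged 209 ± 18.6 CPM in brain controls and 72.6 ± 7.69 CPM in control tumours, against 27.2 ± 2.06 CPM in untreated cultured cells. The brain control mean was 7.67 times, and the control tumour mean 2.66 times, that of cultured controls. Every brain library exceeded every tumour library for Lamb2, and every tumour library exceeded every library of cultured cells.

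The chains shared by epithelial and vessel laminins varied less. Lama5 (ENSMUSG00000015647), an alpha chain of both epithelial and vessel laminins, averaged 536 ± 17.5 CPM in untreated cultured cells, 515 ± 49.3 CPM in control tumours and 325 ± 20.2 CPM in brain controls. Lamb1 (ENSMUSG00000002900), the common beta chain, averaged 487 ± 13.6, 504 ± 28.8 and 225 ± 15.4 CPM in those groups. Lamc1 (ENSMUSG00000026478), the common gamma chain, averaged 405 ± 10.6, 339 ± 30.4 and 133 ± 10.2 CPM. For all 3 genes the brain controls were the lowest of these groups. The cultured control mean was 1.65 to 3.04 times the brain control mean. The libraries of control tumours overlapped those of cultured controls for Lama5 and Lamb1. In libraries titled scramble, also a control culture, Lamc1 averaged 165 ± 28.9 CPM and overlapped the brain controls. Lama5 and Lamb1 lay above all brain controls there. In libraries titled miR-145a-3p, Lamc1 averaged 293 ± 8.47 CPM, above all brain controls.

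The integrin chains did not follow each other. Itga6 (ENSMUSG00000027111), the alpha6 chain that pairs with either beta4 or beta1, averaged 177 ± 8.10 CPM in control tumours, 323 ± 12.2 CPM in untreated cultured cells and 54.6 ± 2.27 CPM in brain controls. Itgb4 (ENSMUSG00000020758), the beta4 chain, which pairs with alpha6 alone, averaged 374 ± 39.5 CPM in control tumours, 134 ± 4.46 CPM in untreated cultured cells and 12.2 ± 3.99 CPM in brain controls. Control tumours thus carried 2.79 times the Itgb4 and 0.547 times the Itga6 of cultured controls. In libraries titled scramble, the other control culture, Itga6 averaged 189 ± 22.4 CPM and overlapped the control tumours. Itgb4 averaged 115 ± 6.31 CPM there, below all control tumours. The Itga6 difference of tumours therefore held against untreated cultured cells and not against libraries titled scramble. By the library names, scramble would be the libraries titled miR-145a-3p. Itga6 averaged 236 ± 15.8 CPM in those, above all control tumours. Both chains were lowest in brain, where the cultured control mean was 5.91 times the brain control mean for Itga6 and 11.0 times for Itgb4.

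**Figure D1:**
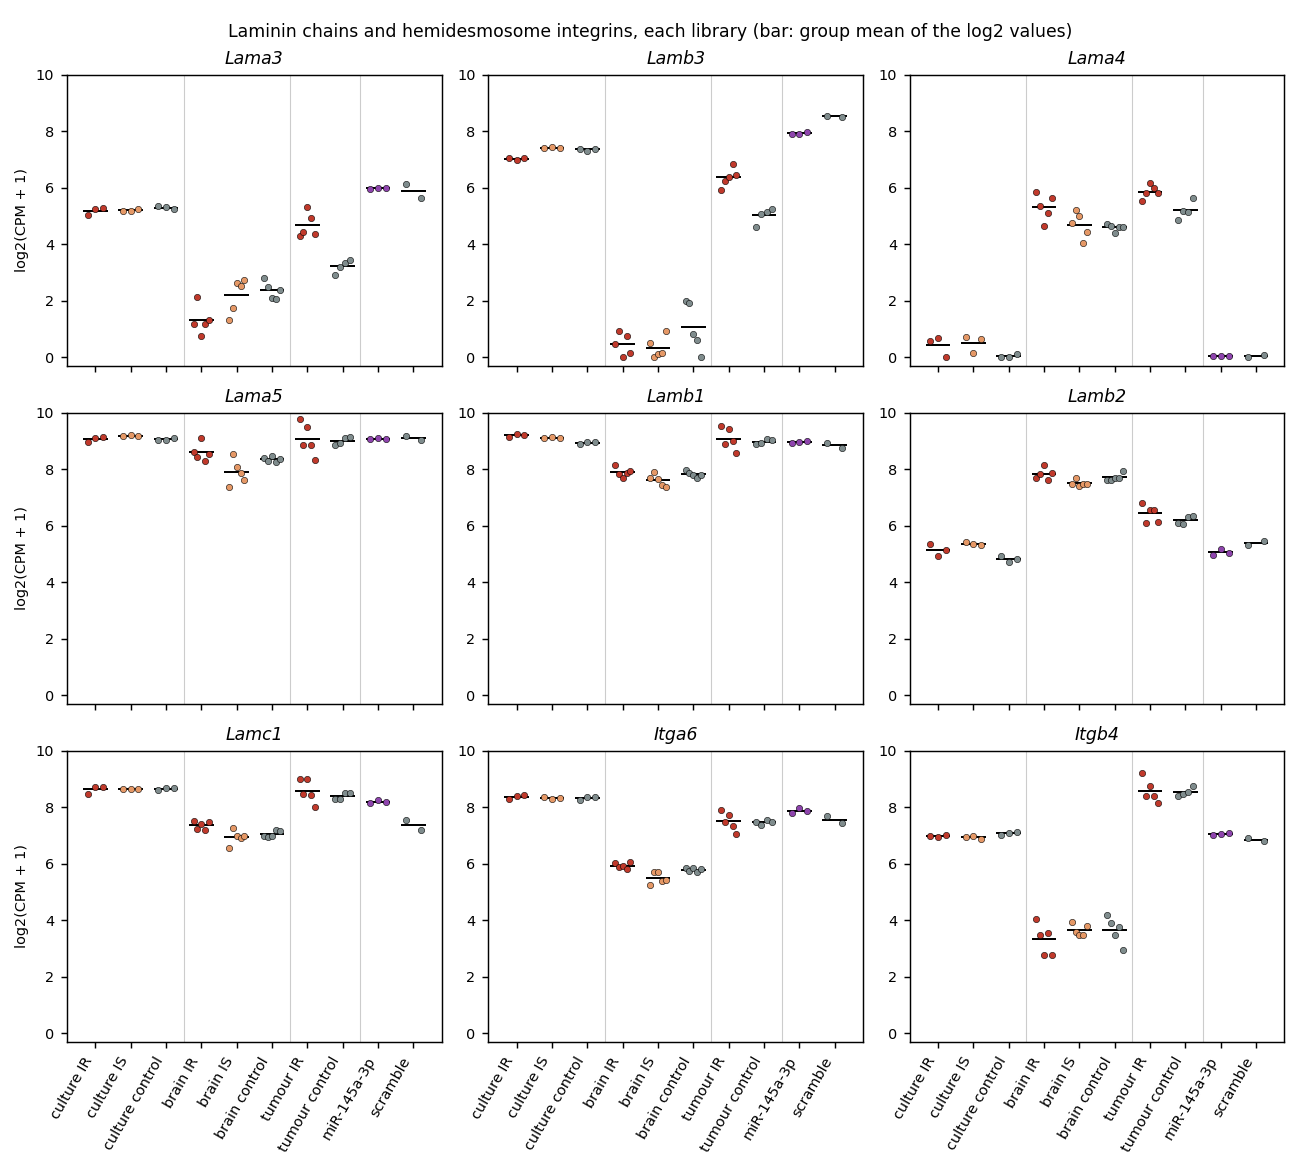
Levels of the 9 genes in each of the 38 libraries, as log2(CPM + 1), with a panel per gene, libraries grouped by experiment along the horizontal axis, and bars at the group mean of the log2 values. Lama3 and Lamb3 are high in cultured cells and lowest in brain libraries, Lama4 is near 0 in cultured cells, and Lama5, Lamb1 and Lamc1 are high throughout.

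Levels of different chains were compared per kilobase of coding length. In untreated cultured cells Lamb1 stood at 88.5, Lamc1 at 84.0, Lama5 at 48.0, Lamb3 at 46.2, Lamb2 at 5.05, Lama3 at 3.83 and Lama4 at 0.00547 CPM per kb. In brain controls Lamb1 (40.9 CPM per kb) and Lamb2 (38.7 CPM per kb) were close and Lamb3 was at 0.402 CPM per kb. Lama5 led the alpha chains in every group, with group means of 75.6% to 93.5% of the summed level of the 5 alpha chain genes per kb. Lama3 held 7.39 ± 0.511% of that sum in untreated cultured cells, 1.54 ± 0.114% in control tumours and 1.15 ± 0.287% in brain controls, and Lama4 held 12.1 ± 1.80% in control tumours and 11.6 ± 1.15% in brain controls.

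As the contrast of the laminin-332 chains with the others, the summed level per kb of Lama3 and Lamb3 was divided by that of Lama4, Lama5, Lamb1, Lamb2 and Lamc1 in each library. On the log2 scale this balance averaged -2.17 ± 0.06 in untreated cultured cells, -4.54 ± 0.20 in control tumours and -7.61 ± 0.85 in brain controls. It averaged -3.30 ± 0.63 in IR tumours, and the libraries of IR and control tumours lay apart. The ratio of Itgb4 to Itga6 per kb averaged 0.249 ± 0.00400 in untreated cultured cells, 1.27 ± 0.130 in control tumours and 0.134 ± 0.0438 in brain controls. IR tumours had 1.28 ± 0.133 for that ratio, so IR and control tumours overlapped while both lay above all other groups.

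**Figure D2:**
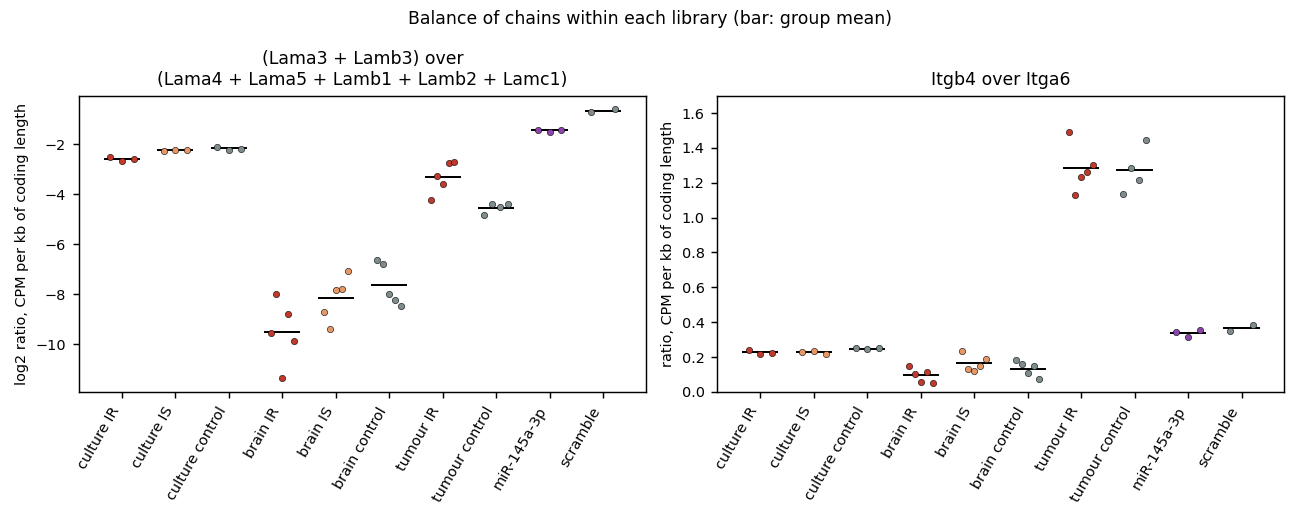
Left, log2 ratio of Lama3 and Lamb3 to Lama4, Lama5, Lamb1, Lamb2 and Lamc1, summed as CPM per kb of coding length. Right, ratio of Itgb4 to Itga6 on the same scale. Points are libraries and bars group means. The log2 ratio is lowest in the 3 brain groups, and the Itgb4 to Itga6 ratio is above 1 in the 9 tumours alone.

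In cultured cells, exosomes of IR adipocytes were accompanied by less Lamb3 and more Lamb1. Lamb3 was at 132, 125 and 131 CPM in IR libraries, 168, 171 and 168 CPM in IS libraries and 165, 157 and 164 CPM in control libraries. All 3 IR libraries lay below all control and IS libraries. Lamb3 fell by 0.32 ± 0.04 on the log2 scale (SE, 1.25 times lower, edgeR quasi-likelihood test, adjusted p = 2.02e-05) in IR libraries against control, and kept an adjusted p of at most 0.000313 in all 13 alternatives tried. In IS libraries against the same controls its log2 fold change was 0.06 (adjusted p = 0.304). Between IR and IS libraries it was -0.38 ± 0.04 (adjusted p = 3.46e-05).

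Lamb1 stood at 568, 607 and 589 CPM in IR libraries, 556, 560 and 550 CPM in IS libraries and 471, 493 and 496 CPM in control libraries. Both exosome groups lay above all controls. Lamb1 rose by 0.27 ± 0.04 on the log2 scale in IR libraries against control (adjusted p = 4.73e-05) and by 0.19 ± 0.04 in IS libraries against the same controls (adjusted p = 0.00115), in edgeR's quasi-likelihood test. Lamb2 was at 40.2, 29.1 and 34.4 CPM in IR libraries, 42.1, 39.8 and 39.0 CPM in IS libraries and 29.3, 25.2 and 27.2 CPM in control libraries. It rose by 0.34 ± 0.10 in IR libraries (adjusted p = 0.0352), whose lowest value overlapped the controls, and by 0.56 ± 0.10 in IS libraries (adjusted p = 0.000713), whose values all exceeded the controls. The call of Lamb2 in IR libraries was lost without IR 1 (adjusted p = 0.140), IR 3 (0.0870), control 2 (0.132) or control 3 (0.100), and when IS libraries were left out of the fit (0.0605).

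The other 5 of the 8 tested genes were not called in IR libraries: Lama3 (35.2 ± 3.37 CPM in IR, 38.2 ± 1.72 CPM in control), Lama5, Lamc1, Itga6 and Itgb4 had log2 fold changes of -0.12 to 0.04, and the sign of Lama5 and Lamc1, within 0.02 of 0, changed with the scaling. In all, 3 of 8 were called in IR libraries against control, where 13.6% of all tested genes were, and 2 of 8 had groups that did not overlap, as did 30.2% of all tested genes. In IS libraries against the same controls 3 of 8 were called as well, where 19.3% of all tested genes were, and 5 of 8 had groups that did not overlap, as did 36.8% of all tested genes. The third of these was Itgb4, at 124, 125 and 116 CPM in IS libraries and 129, 136 and 138 CPM in control libraries, which fell by 0.14 ± 0.04 (adjusted p = 0.0353). That call was lost in 8 of 13 alternatives, among them DESeq2 (adjusted p = 0.0598) and leaving out IS 1 (0.0556), IS 3 (0.148), control 2 (0.101) or control 3 (0.127). Lama5, at 583 ± 8.35 CPM in IS and 536 ± 17.5 CPM in control libraries, had an adjusted p of 0.0550, was called in 7 of 13 alternatives, among them DESeq2 (0.0447), and was called without control 3 (0.0451). Lama3 (35.5 ± 1.18 CPM in IS), Lamc1 (403 ± 1.50 CPM in IS against 405 ± 10.6 CPM in control) and Itga6 (322 ± 5.67 CPM in IS against 323 ± 12.2 CPM in control) had log2 fold changes of -0.10, -0.01 and 0.00. Between IR and IS libraries, 1 of 8 genes was called, Lamb3, where 6.27% of all tested genes were, and 3 of 8 had groups that did not overlap, as did 26.6% of all tested genes. Without IR 1, Lamb2 was also called there (adjusted p = 0.0230). The log2 fold changes of the 7 genes not called there were -0.01 for Lama3, -0.13 for Lama5, 0.08 for Lamb1, -0.23 for Lamb2, -0.01 for Lamc1, 0.04 for Itga6 and 0.06 for Itgb4.

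Lama4 was near its floor in cultured cells, with 12 counts over the 3 IR libraries (5, 7 and 0), 16 over the 3 IS libraries (8, 1 and 7) and 1 over the 3 control libraries. The ratio of IR to control, scaled by library size, was 11.4 with a 95% exact interval of 1.69 to 487 for counting error alone, and that of IS to control was 14.7 (2.28 to 616). IR 3 held 0 counts, so the IR and control libraries overlapped, and IS 2 held 1 count, as did control 3. The summed level of 6 fibroblast markers was 22.9 to 25.04 CPM in IR, 26.5 to 31.7 CPM in IS and 12.1 to 15.5 CPM in control libraries. Of these markers Col3a1 and Lum were at 0 in the IR and IS groups and Col3a1, Dcn and Lum in the control group. The 1 fibroblast marker in the fit, Pdgfra, rose in both exosome groups (log2 fold changes 0.82 in IR and 1.03 in IS). Its 23.5 ± 0.98 CPM in IR and 13.2 ± 1.86 CPM in control libraries made up most of the sum, which thus followed 1 gene. The part of fibroblast transcripts in the Lama4 counts was not tested.

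Partners outside the 9 genes are given from lists chosen with earlier results known. Of 3 tested hemidesmosome partners, 2 rose in IR libraries, the linker plectin (Plec, 726 ± 28.9 against 631 ± 17.3 CPM) and the tetraspanin Cd151 (120 ± 5.70 against 101 ± 2.05 CPM), and Plec alone rose in IS libraries. Of 6 other laminin receptors, 2 fell in IR and 4 in IS libraries, led by Itga3, the alpha3 integrin chain that also binds laminin-332 (log2 fold changes -0.21 and -0.28). Of 9 tested basement membrane partners, 2 rose in IR libraries (Col18a1 and Col4a1) and 5 in IS libraries, with 0 lower in either. Between IR and IS libraries 1 of these 9 was higher in IR (Col18a1) and 3 were lower (Npnt, Col4a2 and Agrn). Of 2 tested laminin processing proteases, Mmp14, a membrane-bound metalloproteinase, fell in both groups (172 ± 4.73 CPM in IR and 164 ± 5.07 CPM in IS against 195 ± 3.76 CPM in control, adjusted p = 0.00396 and 0.000221). Of 8 epithelial markers, 6 fell in IR and 7 in IS libraries, and their summed level was 3199 to 3273 CPM in IR, 2725 to 2787 CPM in IS and 3675 to 3687 CPM in control libraries; their part in the laminin changes was not tested.

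**Figure D3:**
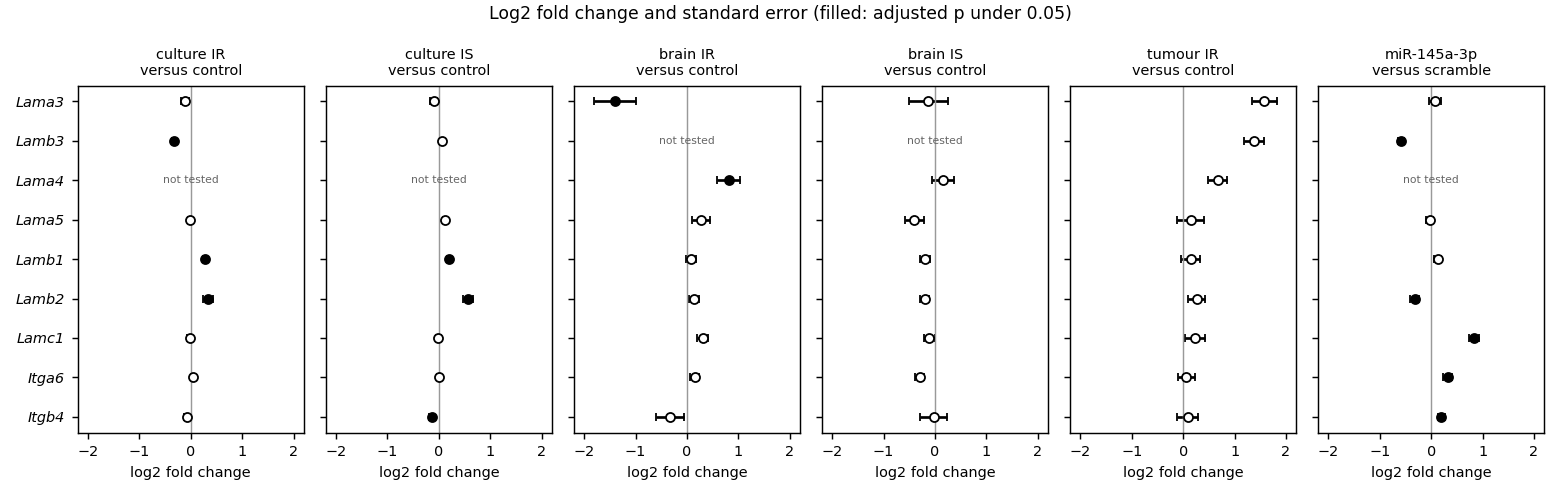
Log2 fold changes of the 9 genes with standard errors in 6 comparisons, each group against its control, filled where the adjusted p of edgeR's quasi-likelihood test was under 0.05. Lamb3 lies left of 0 in cultured IR cells and in the libraries titled miR-145a-3p, and right of 0 with Lama3 in IR tumours, where no gene was called.

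In primary tumours the laminin-332 chains were higher in all 5 IR tumours than in all 4 controls, though no gene passed the adjusted threshold. Lamb3 was at 59.1, 74.8, 82.4, 112 and 87.2 CPM in IR tumours, against 23.5, 32.7, 34.0 and 37.2 CPM in control tumours. Lama3 was at 18.5, 20.8, 38.5, 29.1 and 19.7 CPM in IR tumours, against 6.55, 8.21, 9.10 and 9.95 CPM in control tumours. The groups did not overlap for either gene, which held for 2.41% of all tested genes. The IR mean was 2.61 times the control mean on the fitted scale for Lamb3 (log2 fold change 1.38 ± 0.20, unadjusted p = 3.41e-05, adjusted p = 0.354 in edgeR's quasi-likelihood test) and 2.99 times for Lama3 (1.58 ± 0.25, unadjusted p = 8.19e-05, adjusted p = 0.354).

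Of the 9 genes, 0 were called, as were 0% of all 12962 tested genes by edgeR's quasi-likelihood test, in which 991 genes (7.65%) had an unadjusted p under 0.05. DESeq2 called 124 genes (0.957%), and among them Lamb3 (adjusted p = 2.73e-07) and Lama3 (adjusted p = 6.29e-06). With the replicate number as a block, Lamb3 was called (log2 fold change 1.35 ± 0.11, adjusted p = 0.0481) and was the 1 gene called of all those tested, and Lama3 had an adjusted p of 0.105. The labels do not pair IR with control tumours, and the main fit used no block. Deviations of tumours with the same number correlated at 0.759 for number 2 and at 0.117 to 0.230 for the others. The latter lie within the range of the other experiments (-0.203 to 0.237). The block is therefore given as an alternative and not as the result.

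The remaining chains differed less between tumours. Lama4 was at 44.5, 55.6, 70.9, 63.1 and 54.6 CPM in IR tumours and 28.0, 34.9, 34.3 and 48.0 CPM in control tumours, with control 4 above the lowest IR tumour (log2 fold change 0.67 ± 0.18, adjusted p = 0.466). Lama5, Lamb1, Lamb2, Lamc1, Itga6 and Itgb4 had log2 fold changes of 0.06 to 0.26 with adjusted p from 0.794 to 0.989, and their groups overlapped. IR 1 was the highest of the 9 tumours for Lama5 (880 CPM), Lamb1 (735 CPM), Lamb2 (111 CPM), Itga6 (237 CPM) and Itgb4 (589 CPM). IR 5 was the lowest for Lama5 (323 CPM), Lamb1 (382 CPM), Lamc1 (257 CPM), Itga6 (131 CPM) and Itgb4 (284 CPM). The median log2 fold change of the 9 genes was 0.23, against 0.01 over all tested genes.

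Marker sums of other cells also differed between the tumours, and no partner of the hemidesmosome, receptor, basement membrane and protease lists was called by edgeR's quasi-likelihood test. That test called 0% of all tested genes in tumours, so its calls do not tell these genes from others. The summed level of 6 fibroblast markers was 6061 to 12036 CPM in IR and 3487 to 6558 CPM in control tumours. Of the 6, 0 were called and 2 had groups that did not overlap, as did 2.41% of all tested genes. The sum of 4 basal epithelial markers was 49.4 to 321 CPM in IR and 49.3 to 109 CPM in control tumours. Of 3 tested, 0 were called and 0 had groups that did not overlap. The summed level of 7 pericyte and smooth muscle markers was 248, 394, 511, 1563 and 916 CPM in IR 1 to IR 5. It was 196, 304, 257 and 363 CPM in control 1 to control 4. Of the 7, 0 were called and 1 had groups that did not overlap. IR 1 and IR 4 were the lowest and the highest IR tumours for that sum as for Lamb3. They were also the lowest (6061 CPM) and the highest (12036 CPM) IR tumours for the fibroblast sum. In both sums the IR tumours overlapped the controls. Skeletal muscle markers summed to 10573 CPM in IR 4 and 1566 CPM in IR 5, against 8.48 to 210 CPM in the other 7 tumours. Without IR 4 and IR 5, the log2 fold change of Lamb3 was 1.18 ± 0.18 (adjusted p = 0.290) and that of Lama3 1.61 ± 0.28 (adjusted p = 0.297). No marker of these 4 lists was at 0 in a whole tumour group, and the part of fibroblast, basal epithelial, pericyte and smooth muscle RNA in the Lamb3 and Lama3 difference was not tested.

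**Figure D4:**
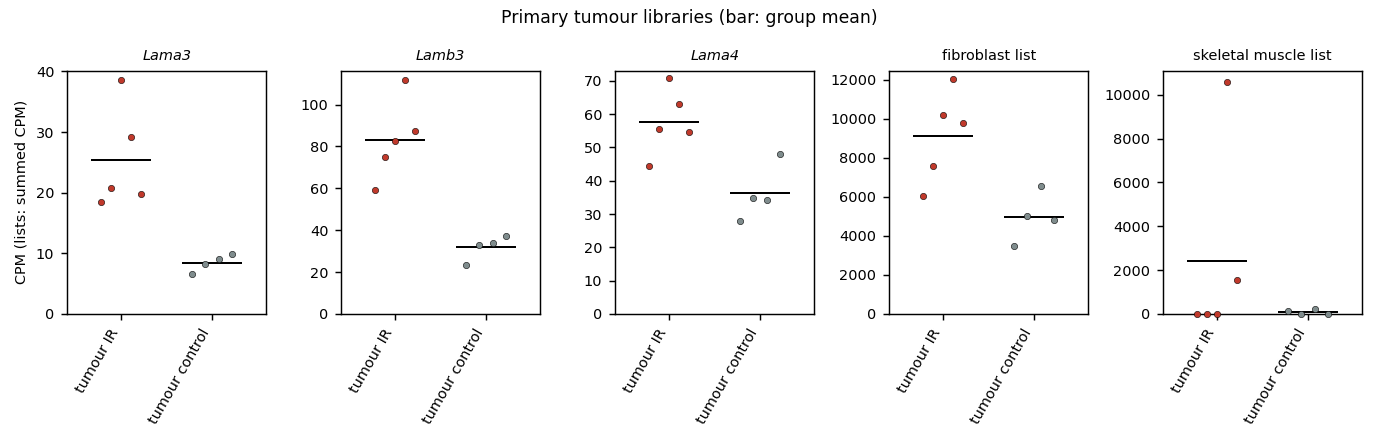
CPM of Lama3, Lamb3 and Lama4 and summed CPM of the fibroblast and skeletal muscle marker lists in the 5 IR and 4 control tumours, with bars at group means. IR tumours lie above all control tumours for Lama3 and Lamb3, and 2 IR tumours hold the muscle transcripts.

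Lamb3 thus stood lower in IR than in control libraries in culture and higher in IR than in control libraries in tumours. The difference between these effects, in separately normalised tables, was not tested. Lama3, the alpha chain of the same trimer, was not called in culture (log2 fold change -0.12, adjusted p = 0.359).

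The brain libraries held little laminin-332. Lamb3 had 20 counts over the 5 IR libraries (4, 9, 0, 6 and 1), 19 over the 5 IS libraries (5, 0, 1, 1 and 12) and 65 over the 5 control libraries (29, 24, 7, 5 and 0). Control 1 and control 2 held most of the control counts, and the other 3 control libraries overlapped both the IR and the IS libraries. Scaled by library size, the ratio of IR to control was 0.314 (95% exact interval 0.180 to 0.526, counting error alone) and that of IS to control 0.260 (0.147 to 0.440). Control 1 and control 2 also had the highest sums of 4 basal epithelial markers, at 12.6 and 7.45 CPM against 0 to 4.36 CPM in the other 13 brain libraries. Krt5 and Krt14 were at 0 in all IR and IS libraries. Their part in the Lamb3 counts was not tested.

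Lama3 was lower and Lama4 higher in IR than in control brain libraries. Lama3 was at 1.23, 3.34, 0.679, 1.26 and 1.50 CPM in IR libraries and 5.98, 4.54, 3.30, 3.16 and 4.22 CPM in control libraries. IR 2 alone reached into the range of the controls. The other IR libraries lay under the 3 CPM of the filter, which Lama3 passed through the control and IS libraries. Lama3 fell by 1.40 ± 0.41 on the log2 scale (2.64 times lower, edgeR quasi-likelihood test, adjusted p = 0.0360). The call was lost without any of IR 1, IR 3, IR 4, IR 5, control 1, control 2, control 4 or control 5 (adjusted p from 0.0502 to 0.0944), and without control 1 and control 2 together the log2 fold change was -1.15 ± 0.48 (adjusted p = 0.181). In IS libraries Lama3 was at 1.47, 2.33, 5.12, 4.79 and 5.65 CPM and overlapped both other groups (log2 fold change -0.13 against the same controls, adjusted p = 0.890).

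Lama4 was at 56.4, 40.2, 24.2, 33.6 and 48.9 CPM in IR libraries, 26.1, 36.2, 30.6, 15.4 and 20.4 CPM in IS libraries and 25.4, 24.1, 19.8, 23.2 and 23.6 CPM in control libraries. Of the IR libraries 4 exceeded all controls and IR 3 lay among them, while the IS libraries lay on both sides of the controls. Lama4 rose by 0.81 ± 0.22 on the log2 scale in IR libraries (1.75 times, edgeR quasi-likelihood test, adjusted p = 0.0248), and its log2 fold change in IS libraries against the same controls was 0.15 ± 0.22 (adjusted p = 0.760). The IR call was lost without IR 1 (adjusted p = 0.0709), IR 5 (0.0583), control 3 (0.0592) or control 4 (0.0548), and without control 1 and control 2 together (0.0871). DESeq2 gave Lama4 an adjusted p of 0.00388 and Lama3 one of 0.00930.

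These were 2 of 8 tested genes in IR against control libraries, where 11.7% of all tested genes were called, and 0 of 8 had groups that did not overlap, against 11.8% of all tested genes. The remaining 6 were not called. Lamc1 was at 164 ± 17.3 CPM in IR and 133 ± 10.2 CPM in control libraries (log2 fold change 0.30, adjusted p = 0.0766), and was called without IR 4 (adjusted p = 0.0495). Lama5 (394 ± 89.2 against 325 ± 20.2 CPM), Lamb1, Lamb2 and Itga6 had log2 fold changes of 0.08 to 0.28, and Itgb4 had one of -0.33 ± 0.27. In IS against the same control libraries, 0 of 8 were called by edgeR's quasi-likelihood test, where 6.46% of all tested genes were, and 3 of the 8 had an unadjusted p under 0.05, as did 21.7% of all tested genes. None of the 8 had groups that did not overlap, against 7.81% of all tested genes. Those with an unadjusted p under 0.05 were Itga6 (44.6 ± 6.48 against 54.6 ± 2.27 CPM, adjusted p = 0.0568), Lama5 (247 ± 80.6 against 325 ± 20.2 CPM, adjusted p = 0.200) and Lamb2 (181 ± 14.8 against 209 ± 18.6 CPM, adjusted p = 0.224). Lamb1 (197 ± 29.2 against 225 ± 15.4 CPM), Lamc1 (124 ± 21.4 against 133 ± 10.2 CPM) and Itgb4 (11.9 ± 1.90 against 12.2 ± 3.99 CPM) had log2 fold changes of -0.19, -0.11 and -0.03. DESeq2 called 1 of the 8, Itga6 (adjusted p = 0.0443), and 9.43% of all tested genes, and edgeR's test called Itga6 without IS 3 (0.0299) and Lama5 without IS 2 (0.0368).

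Between IR and IS brain libraries, 0 of 8 genes were called by edgeR's quasi-likelihood test, where 0.0464% of all tested genes were, and 7 of the 8 had an unadjusted p under 0.05, as did 18.1% of all tested genes. Itga6 was at 63.8, 58.4, 59.1, 55.0 and 66.3 CPM in IR libraries and 37.5, 50.8, 52.0, 40.7 and 41.7 CPM in IS libraries, and was the 1 gene of the 8 whose groups did not overlap (1.89% of all tested genes). Its log2 fold change was 0.44 ± 0.09 (adjusted p = 0.0682). The other 7 had log2 fold changes of -1.27 for Lama3, 0.66 for Lama4, 0.68 for Lama5, 0.27 for Lamb1, 0.34 for Lamb2, 0.41 for Lamc1 and -0.30 for Itgb4. DESeq2 called 5 of the 8 (Lama3, Lama5, Lamb2, Lamc1 and Itga6) and 604 genes in all (4.67%). Without IS 2, edgeR's test called 7 of the 8, with adjusted p from 0.00398 for Lama5 to 0.0439 for Lama3. Itga6 was also called without IR 4 (adjusted p = 0.0410) or IS 1 (0.0498).

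The summed level of 9 endothelial markers was 512 to 1102 CPM in IR, 188 to 875 CPM in IS and 138 to 192 CPM in control brain libraries, with 9 of 9 higher in IR and 6 of 9 higher in IS than in control. IS 2 held the 875 CPM, above all other IS libraries. The summed level of 5 macrophage and microglia markers was 97.3 to 331 CPM in IR, 198 to 823 CPM in IS and 405 to 588 CPM in control libraries, with 3 of 4 tested lower in IR and 0 of 4 called in IS. The part of endothelial and macrophage RNA in the Lama4 and Lama3 changes was not tested. Of 13 basement membrane partners, 4 rose in IR libraries with 0 lower: agrin (Agrn, 121 ± 28.8 against 70.6 ± 5.89 CPM), nidogen (Nid1, 238 ± 69.4 against 144 ± 16.4 CPM), and the collagen IV chains Col4a1 and Col4a2. In IS libraries 2 of the 13 fell, the proteoglycan perlecan (Hspg2, 609 ± 126 against 959 ± 41.3 CPM, adjusted p = 0.00471) and the collagen Col18a1 (505 ± 85.0 against 703 ± 68.2 CPM, adjusted p = 0.0249). Plec fell in both, at 459 ± 27.3 CPM in IR and 431 ± 23.6 CPM in IS against 587 ± 19.96 CPM in control libraries (adjusted p = 0.00175 and 0.000474). Of 6 other laminin receptors, 0 were called in IR and 1 in IS libraries, Itga3 (346 ± 14.0 against 499 ± 43.9 CPM, adjusted p = 0.000700). Of 4 laminin processing proteases, 0 were called in IR and 1 in IS libraries, the metalloproteinase Mmp2 (80.8 ± 14.6 against 131 ± 13.5 CPM, adjusted p = 0.00322). No partner was called between IR and IS libraries by edgeR's quasi-likelihood test. Of the laminin chains outside the 9, Lama1 rose in IR libraries (5.87 ± 3.44 against 1.90 ± 1.09 CPM, adjusted p = 0.0366) and Lama2 fell in IS libraries (13.8 ± 1.80 against 25.8 ± 4.75 CPM, adjusted p = 0.0163).

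**Figure D5:**
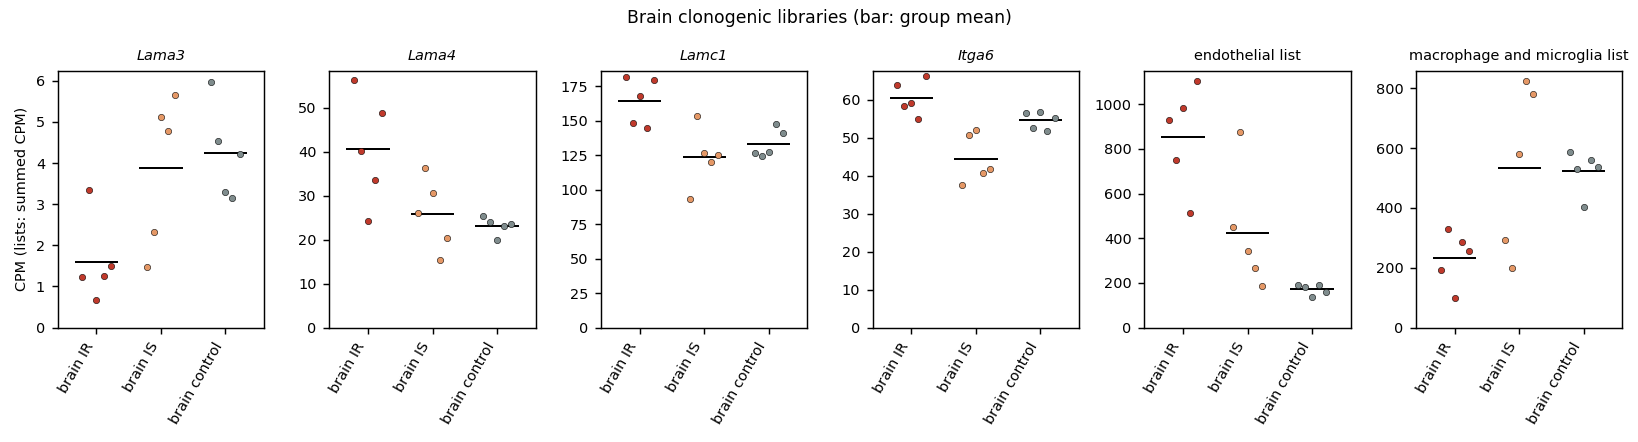
CPM of Lama3, Lama4, Lamc1 and Itga6 and summed CPM of the endothelial and the macrophage and microglia marker lists in the 5 IR, 5 IS and 5 control brain libraries, with bars at group means. IR libraries are mostly low for Lama3 and high for Lama4, and all lie above the controls in the endothelial list.

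In the miRNA experiment 5 of 8 tested genes were called, close to the 56.7% of all tested genes, so the count says nothing particular to these genes. The groups of 6 of 8 did not overlap, against 73% of all tested genes. Lamb3 was at 239, 235 and 251 CPM in libraries titled miR-145a-3p and at 369 and 362 CPM in those titled scramble, which lay apart (log2 fold change -0.59 ± 0.06, 1.51 times lower, edgeR quasi-likelihood test, adjusted p = 0.000170). Lamc1 was at 286, 302 and 290 CPM in libraries titled miR-145a-3p and 185 and 144 CPM in those titled scramble (log2 fold change 0.83 ± 0.10, adjusted p = 0.000404). These 2 genes kept their call in all 12 alternatives. The summed level of 4 basal epithelial markers was 164 to 175 CPM in libraries titled miR-145a-3p and 227 to 237 CPM in those titled scramble, with 2 of 2 tested lower and Krt5 at 0 in both, and its part in the Lamb3 difference was not tested. Lamb2 was lower (32.4 ± 2.45 against 40.7 ± 2.86 CPM, adjusted p = 0.0119), and Itga6 (236 ± 15.8 against 189 ± 22.4 CPM, adjusted p = 0.0148) and Itgb4 (132 ± 4.85 against 115 ± 6.31 CPM, adjusted p = 0.0234) were higher in libraries titled miR-145a-3p.

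With 3 against 2 libraries, single libraries and processing choices decided several of these calls. Lamb2 was lost without miR-145a-3p 1 (adjusted p = 0.0504) or miR-145a-3p 3 (0.0501). Library totals alone (0.0793), no filter (0.0777) or a replicate block (0.0570) also ended its call. Itga6 was lost without miR-145a-3p 2 (0.0586) or with a replicate block (0.0565). Itgb4 was lost without miR-145a-3p 2 (0.0650) or miR-145a-3p 3 (0.101), and with upper quartile scaling (0.0576) or a replicate block (0.240). Without scramble 2, which leaves 1 scramble library, its log2 fold change was 0.14. Lama3 (61.9 ± 0.546 against 58.6 ± 13.7 CPM, adjusted p = 0.617) and Lamb1 (501 ± 13.1 against 459 ± 38.04 CPM, adjusted p = 0.151) were not called. Without scramble 1 their log2 fold changes were 0.34 and 0.21. Lamb1 was called without the filter (0.00783). Lama5 had a log2 fold change of -0.03 (adjusted p = 0.672). Lama4 had 3 counts in the libraries titled miR-145a-3p together and 1 in those titled scramble (ratio 1.91, 95% exact interval 0.153 to 100.3, counting error alone). Among 6 other laminin receptors, 3 were higher (Dag1, Itga3 and Itgb1) and 1 lower (Itga7) in libraries titled miR-145a-3p. Dystroglycan (Dag1), which binds laminin alpha chains, was 2.18 times higher in libraries titled miR-145a-3p (170 ± 5.47 against 78.0 ± 18.2 CPM, adjusted p = 0.000285). Of 9 tested basement membrane partners 6 were higher and 1 lower there, of 3 hemidesmosome partners 1 was lower (Plec, 498 ± 11.8 against 706 ± 9.86 CPM), and of 2 proteases Mmp14 was higher and Bmp1 lower.

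The genes whose log2(CPM + 1) was most like that of Lamb3 and Lama4 were listed by Pearson correlation over the libraries of an experiment. The values of 2 genes in a library come from the same depth and cell makeup, which differ between libraries. All groups of an experiment were pooled and group means were not removed. A difference between groups, such as that of Lamb3 between IR and control tumours, therefore also enters these correlations. In the 9 tumours those most like Lamb3 were Fcgr4 (0.964), Bgn (0.962), Cdh11 (0.955), Slit3 (0.952) and Col1a2 (0.952), of 10061 genes compared. Those most like Lama4 there were Nid1 (0.971), Col6a3 (0.970), Cdh5 (0.965), Loxl2 (0.959) and Kif26b (0.953). In the 15 brain libraries, of 9586 genes compared, those most like Lama4 were Pde4b (0.899), Vcam1 (0.891), Inhbb (0.879), Ets1 (0.872) and Prnd (0.869). Those most like Lamb3, which was near its floor there, were Sdc1 (0.843), Gnai3 (0.833), Ncoa4 (0.791), Lpcat2 (0.786) and Utp6 (0.768). No gene was common to the lists of the 2 experiments for either chain. Lists this short cannot show a difference between the experiments.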

How the data were processed

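The deposited values were expected counts that the authors made with RSEM for the culture and brain experiments, and estimated counts from salmon for the tumour and miRNA experiments, per the file headers and titles, 1 table per experiment. Reads were paired-end from a stranded mRNA kit, per the labels' protocols. Named in the submitters' processing notes are DESeq2, featureCounts, STAR and Trimmomatic, with the builds GRCm38 (mm10) and GRCm39 (mm39) and no statement of which table used which. For that reason no coordinates were taken for the tables' features, and the start windows printed are those of RefSeq. In the tables, 97.8% (brain, culture), 84.4% (tumour) and 85.6% (miRNA) of values were whole, within 1e-06, and 3 columns of the culture table matched no sample and were not used. Genes with Ensembl identifiers alone were named through the tumour table (52139 of 55487), and 3257 more through a reference table.

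Counts were rounded, kept at 3 CPM in at least 3 libraries (as the series text describes the authors' filter), scaled by TMM, and tested within each experiment with edgeR 4.0.16 (glmQLFit, glmQLFTest; R 4.3.3) over all groups of the experiment, with Benjamini-Hochberg adjustment over all tested genes and a threshold of 0.05. Where a sentence gives an adjusted p without a tool, it is this one. The biological coefficient of variation was 0.0576 in culture, 0.159 in brain, 0.326 in tumours and 0.0819 in the miRNA experiment. Genes under the filter are given as counts with an exact 95% conditional interval for the ratio. SD is over libraries and SE that of the fitted log2 fold change. Coding lengths are the longest coding sequence per gene in GENCODE vM21, used for levels per kilobase. Alternatives were DESeq2 1.42.0, RLE and upper quartile scaling, library totals alone, no filter, a replicate block, a fit of the groups compared alone, and each library left out. The fit was tested on simulated counts.

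The 9 genes, the partner and marker lists and the rule for genes named from them were chosen with earlier results of these data known. The 9 genes are given in each comparison, and from the partner lists the counts called and some of the called genes with the smallest adjusted p. Replicate numbers come from the sample titles, and for IR columns of the culture and brain tables from the column headers. In tumours the deviations from group means of IR and control libraries with the same number correlated at 0.136, 0.759, 0.230 and 0.117. The labels do not pair IR with control tumours. The main fit used no block, and the replicate block was an alternative only. The 4th control is titled 4 and its library is named 5, and with IR 5 it correlated at 0.00875. One gene of a partner list is not reported here.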

Additional observations from a re-analysis of the deposited data

Results flagged for a closer look

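Among 45 groups of 4 or 5 libraries in which a gene was examined, 2 held a library far from the others for its spread, both for Lamb2 in the brain experiment, and chance alone gives about 1 group in 20. The IS library 2 was the highest of its group at 207 CPM, against 169 to 179 CPM in the other 4. It also had the highest summed level of endothelial markers among IS libraries. The control library 5 was the highest of its group at 241 CPM, against 196 to 206 CPM in the other 4. It had the lowest Lamb3 (0 counts) and the lowest sum of basal epithelial markers (0.264 CPM) among controls.

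Lamb3 differed in opposite directions between IR and control libraries in 2 experiments. Its log2 fold change was -0.32 in cultured cells, where all 3 IR libraries lay below the controls, and 1.38 in primary tumours, where all 5 IR tumours lay above the controls. The difference between the experiments was not tested, and the tumour value was not called in edgeR's quasi-likelihood test (adjusted p = 0.354).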

How the results depend on the processing

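Of 986 log2 fold changes recomputed under alternatives, 874 kept their direction and side of the threshold, 40 lost their call, 37 gained one and 35 changed sign, 24 of them with a library left out and 0 of them with a call in either fit. With upper quartile scaling the log2 fold change was 0.00706 for Lama5 in culture IR against control, and 0.00948 for Lamc1 and 0.0149 for Itga6 in culture IS against control. With library totals alone it was 0.0203 for Lama5 and 0.0125 for Lamc1 in culture IR against control, 0.0308 for Lamc1 and 0.0362 for Itga6 in culture IS against control, 0.0113 for Itgb4 in brain IS against control and 0.0858 for Lama5 in the miRNA experiment. Lama5 was at 0.0896 there without the filter, and Itgb4 at 0.0291 in brain IS against control with a replicate block. With 1 library left out, log2 fold changes that crossed 0 ran from -0.0461 to 0.0396 (Lama5) and -0.0608 to 0.0560 (Lamc1) in culture IR against control. In culture IS against control they ran from -0.0297 to 0.00364 (Lamc1) and -0.0330 to 0.0184 (Itga6), and in culture IR against IS from -0.0639 to 0.0612 (Lama3) and -0.0528 to 0.0641 (Lamc1). They ran from -0.318 to 0.0871 (Lama3) and -0.190 to 0.131 (Itgb4) in brain IS against control, from -0.0609 to 0.297 (Lama5), -0.0440 to 0.163 (Itga6) and -0.0958 to 0.188 (Itgb4) in tumours, and from -0.148 to 0.340 (Lama3) and -0.0983 to 0.0302 (Lama5) in the miRNA experiment. The cause was not tested. The number of the 9 genes called changed as follows. Leaving out 1 library at a time gave 2 to 3 in culture IR against control, 2 to 3 in culture IS against control, 1 to 2 in culture IR against IS, 0 to 2 in brain IR against control, 0 to 1 in brain IS against control, 0 to 7 in brain IR against IS, 0 to 0 in tumours and 3 to 7 in the miRNA experiment. In brain IR against IS the 7 came without IS 2. DESeq2 called 1 in brain IS against control, 5 in brain IR against IS and 2 in tumours. Without the filter, 2 were called in culture IR against IS and 2 in brain IR against IS. Over all tested genes, brain IR against IS gave 6 calls, against 604 with DESeq2, 334 without the filter and 1139 without IS 2, and tumours gave 0 calls, against 124 with DESeq2. Leaving out brain controls 1 and 2, a choice made after seeing the data, left 0 called in IR against control.

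With a replicate block, 1 was called in brain IR against control, 1 in tumours (also when numbered by library name, added after seeing the data), and 2 in the miRNA experiment, and counts in the other 5 comparisons stayed as they were. In culture, brain and miRNA libraries, deviations of libraries with the same number correlated between -0.203 and 0.237. Deviations from the means of such small groups cannot show whether the samples were paired. Without division by coding length the mean log2 balance was -3.02 in culture and -1.91 in the miRNA experiment, against -2.33 and -1.14 with it, and without Lama5 it was -1.998 in culture; the order of experiments did not change. Depth limits Lamb3 in brain and Lama4 in cultured cells, where most libraries held fewer than 10 counts.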
